A study of Mus musculus with 72 samples.

Results

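Undifferentiated mouse embryonic stem cells without functional Nup133 were compared with control cells at day 0, before any differentiation medium was applied. The members were the 6 of 18 biological samples that the labels place at day 0, with 3 knockout samples and 3 controls. The controls were 2 biological replicates of the HM1 line (Nup133+/+, 40 chromosomes, XY) and 1 sample of line 1A4 (Nup133+/+, Sox1 gfp/+, 40 chromosomes, XY). The knockouts were lines 14 (Nup133-/-, 40 chromosomes, XY) and 19 (Nup133-/-, given as likely 40 chromosomes, XY), both made from HM1 with CRISPR/Cas9, and line 319 (Nup133 merm/merm, Sox1 gfp/+, 42 chromosomes, XX with an extra chromosome 8 and an extra chromosome 12). Lines 1A4 and 319 were derived from blastocysts, so each knockout line had a control of its own background. All lines were grown in serum and leukaemia inhibitory factor on inactivated embryonic fibroblasts, which were then depleted by a short plating step. Each knockout line was sampled once at day 0, and the HM1 replicates share a line. The p-values rest on a spread that was estimated over all 18 samples of the 3 days, within groups, and which may be partly technical. Messenger RNA was sequenced in 4 technical files per sample, and their sum is the value of a sample. The same lines were also sampled at day 2, without leukaemia inhibitory factor, and at day 3, after retinoic acid.

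Nup133 belongs to the Y-complex, also called the Nup107-160 complex, a scaffold that forms the outer rings of the nuclear pore. Nuclear pores carry traffic between nucleus and cytoplasm, and the Y-complex also sits at kinetochores during mitosis. Embryonic stem cells in serum and leukaemia inhibitory factor are a mixture of states. Some cells transcribe genes of the primitive streak, the embryonic region in which mesoderm and endoderm arise, and Wnt signals support that programme. Interferon-stimulated genes are antiviral genes that many cell types induce through a receptor-activated transcription factor complex that includes Stat2 and Irf9, and embryonic stem cells respond only weakly to interferon.

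Depth at day 0 ranged from 26.6 to 52.2 M counts per sample. Levels are given as CPM, counts scaled to a common library size and corrected for composition, and samples are always listed as HM1 replicate 1, HM1 replicate 2, line 1A4, then lines 14, 19 and 319. On the first principal component, which held 46.6% of the variance, line 319 lay at 90.6 and the other samples between -35.9 and 11.8. The component that separated lines 14 and 19 (both at -41.6) from the controls (22.5 to 34.8) was the second, with 24.9%. Markers of embryonic stem cells were high in all 6 samples, with a sum over 6 markers of 4087, 4386 and 4300 CPM in the controls and 4766, 4540 and 5711 CPM in the knockouts. The sum over 19 fibroblast markers was 422, 374 and 218 CPM in the controls against 286, 172 and 272 CPM in the knockouts, and none was at 0 in all samples. The sum over 7 smooth muscle markers was 233, 245 and 91.8 CPM against 99.5, 75.4 and 33.9 CPM, so the HM1 samples stood above the rest. Of the trophoblast markers Tpbpa was at 0 in all 6 samples.

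The chromosome levels did not match every label. Each line was set against the control of its own background, and the median log2 difference was taken over genes of at least 5 CPM. Chromosome X stood at 0.69 and chromosome 12 at 0.43 in line 319, but chromosome 8 stood at -0.42 there, although the label gives 3 copies of it. Chromosome 8 was also at -0.20 in line 19 and at -0.01 in line 14. Chromosome 11 stood at -0.24 in line 14, -0.22 in line 19 and -0.13 in line 319, and in line 1A4 it was -0.19 relative to HM1. The medians of the other autosomes lay between -0.12 and 0.11 in the 3 lines. Over the 4 chromosome Y genes of at least 5 CPM the median was -3.56 in line 14 and -3.74 in line 19, where the labels give XY. Of 9 chromosome Y genes tested 7 were called lower, and these 7 stood at 0% to 9.52% of HM1 in lines 14 and 19. Eif2s3y, for example, had 86.7, 88.7 and 147 CPM in the controls against 6.31, 4.97 and 0.122 CPM. The fits were therefore repeated without chromosomes 8, 11, 12, X and Y, and with each chromosome centred in each sample.

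**Figure D1:**
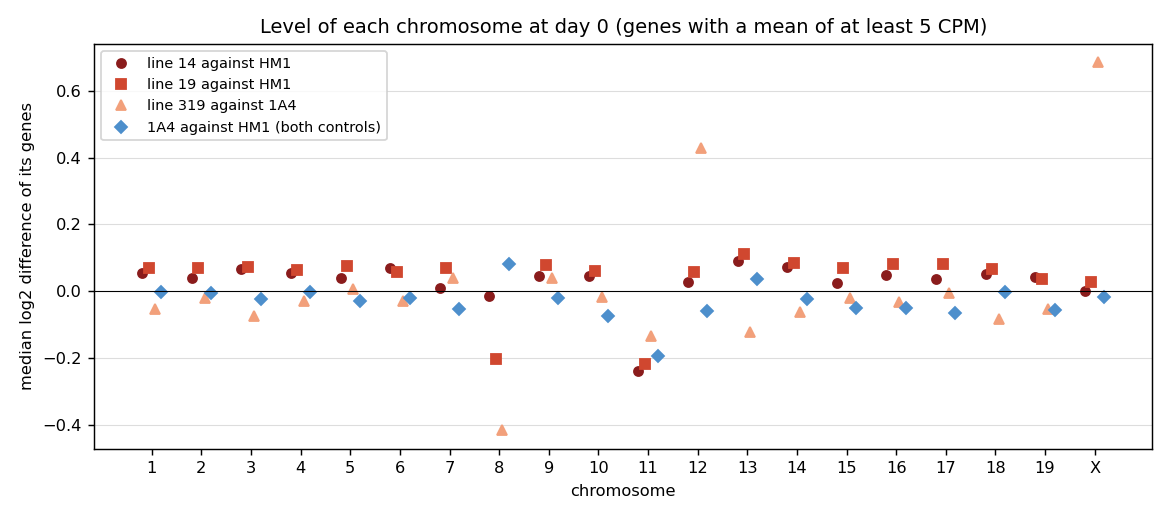
Median log2 difference between each knockout line and the control of its own background, and between the controls 1A4 and HM1 (vertical axis). Every chromosome except Y and MT is shown (horizontal axis), over genes of at least 5 CPM at day 0. Line 319 stands at 0.69 on chromosome X and at -0.42 on chromosome 8, and all 3 knockout lines lie below 0 on chromosome 11.

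The transcript of the targeted gene was low in every knockout line. Nup133 (chr8:123897123-123949265 on GRCm38, minus strand, 26 exons) was at 237, 245 and 323 CPM in the controls and at 27.9, 37.1 and 23.9 CPM in the knockouts. The groups did not overlap, and the means were 269 ± 47.7 and 29.6 ± 6.81 CPM (SD, n = 3 each). The log2 fold change was -3.19 ± 0.26 (SE, adjusted p = 2.1e-05, edgeR quasi-likelihood), and -2.95 with chromosome 8 centred. The exons of Nup133 overlap those of the opposite-strand genes Gm29773 and Gm45890, which adds uncertainty because the use of strand in counting is not given in the sources used here. None of 9 partners of Nup133 in the Y-complex was called, and their median log2 fold change was -0.00. Nup107 was at 217, 209 and 221 CPM in the controls and at 224, 227 and 203 CPM in the knockouts, a log2 difference of 0.02 ± 0.14. Nup160 differed by 0.00 ± 0.28. Of 20 other nucleoporins tested none was called either, with a median of 0.05.

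Among 18273 genes tested, 156 passed an adjusted p of 0.05, and 144 of them (0.788% of the genes tested) were lower in the knockout while 12 (0.0657%) were higher. The called genes were mostly expressed at low levels: 110 of the 144 lower genes had a control mean under 10 CPM. The median log2 fold change was -2.22 among the lower genes and 1.28 among the higher ones. The sign was the same in all 3 knockout lines for 155 of the 156, and for 154 the groups did not overlap. The calls were made from these same values, so this agreement follows largely from the selection and is no separate evidence. Over all genes tested, 9.7% had all 3 knockout samples below all 3 controls and 8.06% had them above. The count depended on single lines or HM1 replicates. Each was left out with its samples of all 3 days, so the spread then also rested on fewer samples. The count fell to 18 without HM1 replicate 2, to 32 without line 14 and to 47 without HM1 replicate 1. It rose to 211 without line 19, to 246 without line 1A4 and to 406 without line 319. With DESeq2 it was 563, of which 153 were among the 156. With the day 0 samples alone it was 244, of which 92 were, and with the HM1-derived lines alone 313, of which 117 were. Of the 156, 114 lie outside chromosomes 8, 11, 12, X and Y, and 21 lie on chromosome 11, where 1.41% of the genes tested were called.

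Of the called genes, 29 belonged to the 29 gene lists examined, 28 lower and 1 higher. Of the 28, 23 belonged to 3 lists, those of the primitive streak and mesendoderm, of Wnt signalling and of interferon-stimulated genes, the former 2 of which share Wnt3. Over all genes tested, the median log2 fold change was 0.01 and 48.3% of the values were below 0.

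**Figure D2:**
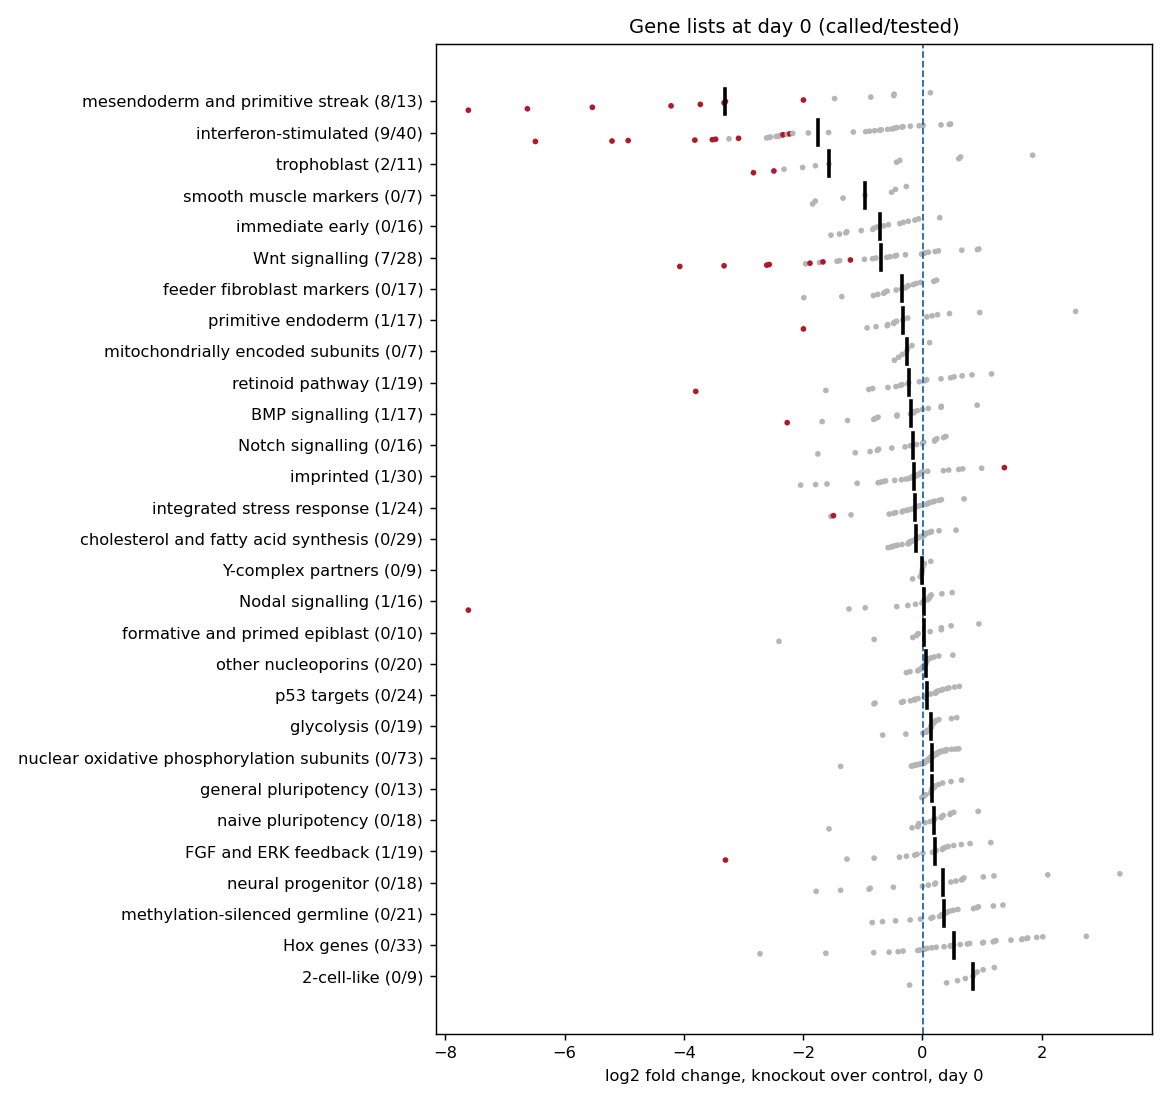
Log2 fold change at day 0, knockout over control (horizontal axis), for the members of each gene list (vertical axis). Grey dots are members that were not called, red dots are members with an adjusted p below 0.05, the black bar is the list's median and the dashed blue line the median of all genes tested, 0.01; the medians of the streak list (-3.30) and the interferon-stimulated list (-1.74) lie far to its left.

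Primitive streak and mesendoderm genes were lower in all 3 knockout lines. Of 14 listed genes 13 passed the filter on low counts, 8 were called lower (0.788% of all genes tested were) and 12 had a fold change below 0. The median log2 fold change was -3.30, or -3.04 with genes near 0 counts set at the bound their counts allow, and it was -3.08, -3.51 and -2.59 in lines 14, 19 and 319 against their own controls. In bulk RNA, fewer cells that express these genes and less RNA per expressing cell cannot be told apart.

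Among the transcription factors of this list, Mixl1, a homeobox factor of the streak (chr1:180693043-180697034), was at 4.86, 6.87 and 7.18 CPM in the controls and at 0.240, 0.325 and 0.449 CPM in the knockouts. Every knockout sample lay far below every control, and the log2 fold change was -4.21 ± 0.40 (adjusted p = 7.5e-05). T, the T-box factor Brachyury that marks early mesoderm (chr17:8434423-8442496), was at 42.5, 56.7 and 21.4 CPM against 4.66, 2.51 and 2.00 CPM. Line 1A4 was the lowest control and still stood above all knockouts. The log2 fold change of T was -3.72 ± 0.55 (adjusted p = 0.0041), and without HM1 replicate 2 its adjusted p was 0.092. Lhx1, a LIM homeobox factor of the organizer region on chromosome 11, was at 5.64, 14.4 and 6.22 CPM against 0.240, 0.186 and 0.184 CPM. The groups were widely apart for Lhx1, with a log2 fold change of -5.53 ± 0.60 (adjusted p = 2.8e-04) and of -5.33 with chromosome 11 centred. Foxa2, a forkhead factor of definitive endoderm, was at 2.16, 2.38 and 1.44 CPM against 0.480, 0.325 and 0.632 CPM, a log2 fold change of -1.99 ± 0.39 (adjusted p = 0.020). The groups did not overlap, but the Foxa2 call was lost without HM1 replicate 1, HM1 replicate 2, line 14 or line 19 (adjusted p from 0.074 to 0.25) and with the day 0 samples alone (0.060).

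Signals and a receptor of the streak were lower as well. Wnt3, the Wnt ligand required to form the streak, on chromosome 11, was at 7.20, 10.2 and 6.66 CPM in the controls and at 0.891, 0.674 and 1.06 CPM in the knockouts. All knockouts lay below all controls, with a log2 fold change of -3.33 ± 0.67 (adjusted p = 0.025), and of -3.11 with chromosome 11 centred. That adjusted p rose to between 0.070 and 0.29 when either HM1 replicate, line 14 or line 19 was left out, and to 0.076 without the background term or the low-count filter. Fgf8, a fibroblast growth factor of the streak, was at 6.52, 10.4 and 3.75 CPM against 0.926, 0.604 and 0.530 CPM, a log2 fold change of -3.30 ± 0.56 (adjusted p = 0.0084), also without overlap. The Fgf8 call was lost without HM1 replicate 2 (0.12), line 14 (0.10) or line 19 (0.052). Cer1, a secreted antagonist of Nodal, BMP and Wnt ligands, was at 0.338, 0.865 and 0.718 CPM in the controls and had no count in any knockout sample, so it was at least 8.22-fold lower (adjusted p = 0.063 with day 0 alone). Aplnr, the apelin receptor of early mesoderm, was at 2.89, 6.97 and 1.68 CPM against 0.0686, 0.0232 and 0.0204 CPM, at least 49.3-fold lower. Apln, its ligand, on chromosome X and in none of the lists, fell with it and was picked after its values were seen: it was at 13.6, 13.5 and 9.26 CPM against 1.44, 1.60 and 1.35 CPM, a log2 fold change of -3.03 ± 0.25 (adjusted p = 2.1e-05), and of -3.27 with chromosome X centred.

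Members that were not called showed smaller differences. Eomes, a T-box factor of the streak and of trophoblast, was at 28.5, 33.5 and 17.6 CPM in the controls and at 10.6, 10.6 and 7.67 CPM in the knockouts. The groups did not overlap, but the log2 fold change of -1.47 ± 0.38 had an adjusted p of 0.10. Gsc (-0.48), Sox17 (-0.47), Evx1 (-0.86) and Tbx6 (0.13, the only positive value) had adjusted p-values between 0.62 and 0.98, and Mesp1 was too low to test. The number of streak genes called was 4 without HM1 replicate 2, 5 without line 14 or without line 19, and 9 without line 319 or without line 1A4. It was 8 after centring each chromosome, and 6 of 10 without chromosomes 8, 11, 12, X and Y.

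Components and targets of the Wnt pathway were lower in part. Of 28 genes tested 7 were called lower (0.788% of all genes tested were) and none higher. In 20 the value was below 0, and the median log2 fold change was -0.69. Among the ligands, Wnt4 was at 2.34, 4.16 and 2.59 CPM in the controls and at 0.377, 0.511 and 0.632 CPM in the knockouts, a log2 fold change of -2.61 ± 0.44 (adjusted p = 0.0084). Wnt5b, which mostly signals outside the beta-catenin branch, was at 2.39, 2.55 and 2.55 CPM against 0.686, 0.395 and 0.938 CPM, a log2 fold change of -1.88 ± 0.29 (adjusted p = 0.0052). Neither ligand's groups overlapped, and both calls were lost without HM1 replicate 2 (0.15 and 0.10) or without line 14 (0.11 and 0.077).

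Axin2, a negative regulator of the pathway that is also its widely used target gene, on chromosome 11, was at 32.1, 41.5 and 28.7 CPM in the controls and at 10.1, 11.8 and 10.3 CPM in the knockouts. The 3 knockout lines lay close together and well below the controls, with a log2 fold change of -1.67 ± 0.30 (adjusted p = 0.014). Centring chromosome 11 left -1.46, and the call was lost without HM1 replicate 1 (0.098), HM1 replicate 2 (0.21) or line 14 (0.14). Lgr5, a receptor for R-spondins, was at 0.702, 0.913 and 0.678 CPM against 0.0686, 0.0232 and 0.0408 CPM, at least 9.81-fold lower, but with the longest transcript of each gene its adjusted p was 0.13. Rspo3, an R-spondin that was in no list, was named by the size of its change: it was at 1.79, 3.56 and 1.91 CPM against 0.274, 0.395 and 0.163 CPM, a log2 fold change of -3.13 ± 0.56 (adjusted p = 0.013, and 0.064 to 0.21 without HM1 replicate 1, HM1 replicate 2 or line 14). Frzb, a secreted Wnt antagonist, was at 2.08, 1.75 and 0.838 CPM against 0.274, 0.256 and 0.224 CPM, with a log2 fold change of -2.57 ± 0.40 (adjusted p = 0.0053). The groups did not overlap for any of these genes, and line 1A4 was the lowest control for each except Rspo3. The Frzb call was lost without the same 3 samples (0.066 to 0.078). Nkd1, an intracellular Wnt inhibitor on chromosome 8, was at 2.60, 2.79 and 1.48 CPM against 1.03, 1.37 and 0.591 CPM, a log2 fold change of -1.21 ± 0.26 (adjusted p = 0.037). Its margin between the groups was small, and its adjusted p was 0.0576 with chromosome 8 centred, 0.098 with the replicate block, 0.072 to 0.16 with day 0 alone, HM1-derived lines alone or no background term, and 0.086 to 0.38 without HM1 replicate 1, HM1 replicate 2, line 14 or line 319.

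The remaining Wnt genes did not pass the test. Sp5, a zinc finger target of beta-catenin, was at 8.79, 9.44 and 5.07 CPM in the controls and at 1.44, 3.25 and 1.33 CPM in the knockouts, a log2 fold change of -1.96 ± 0.66 (adjusted p = 0.22). Lef1, a transcription factor of the pathway, had the opposite sign, with 23.1, 16.7 and 17.8 CPM against 35.6, 59.4 and 19.5 CPM (0.95 ± 0.32, adjusted p = 0.23). The receptors Fzd5, Fzd7, Fzd8 and Lrp6 lay between -0.01 and 0.22. The count of called Wnt genes was 1 without HM1 replicate 2 or without line 14, 3 without HM1 replicate 1 and 9 without line 1A4, and it was 4 of 18 without chromosomes 8, 11, 12, X and Y.

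**Figure D3:**
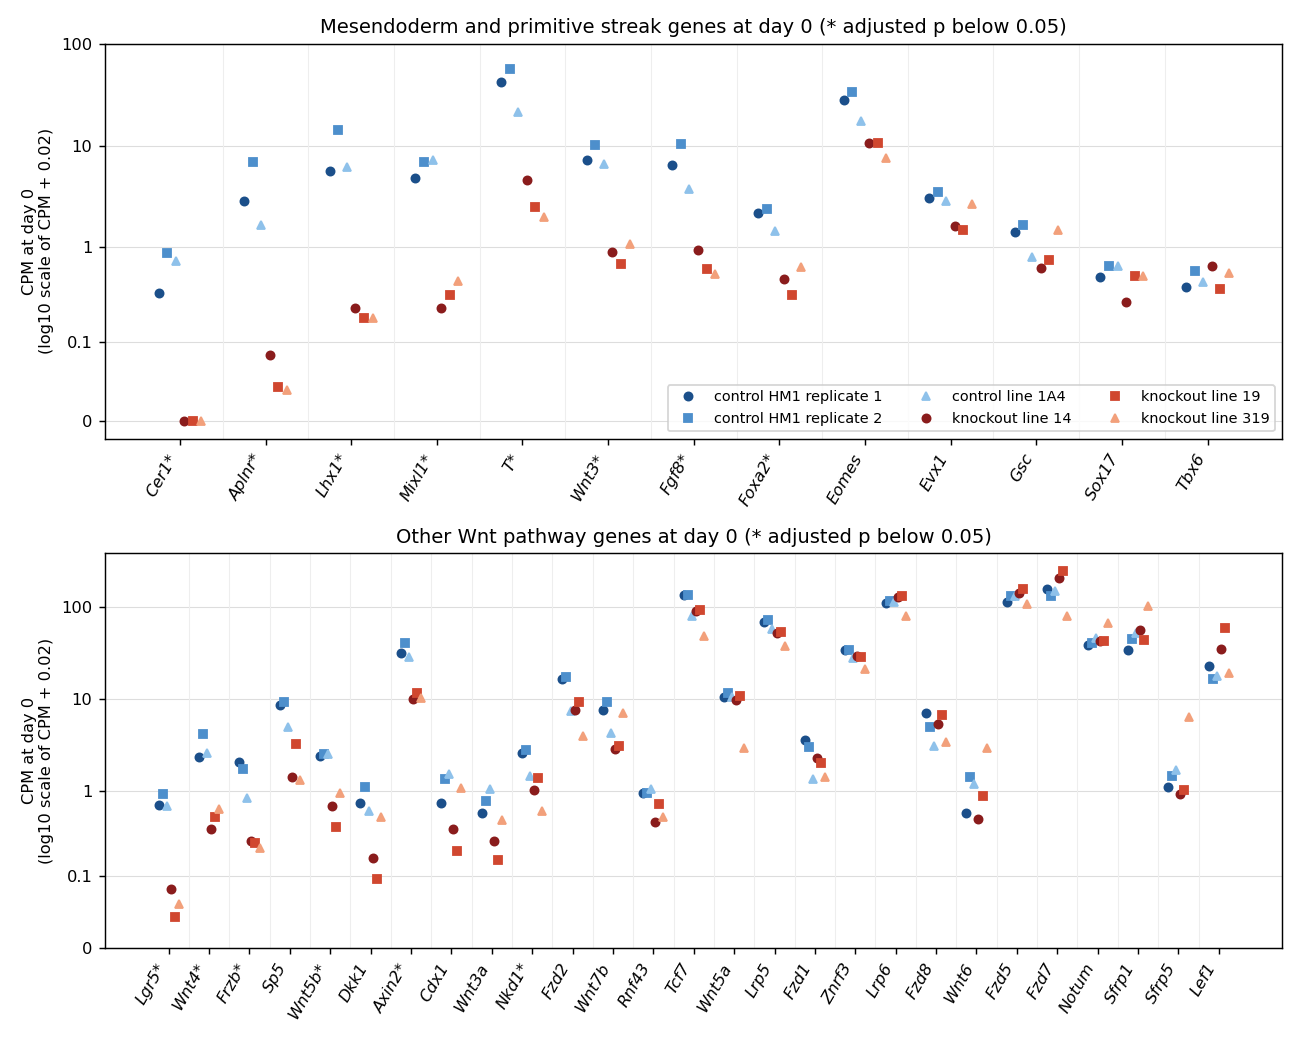
Level of named streak and Wnt genes (horizontal axis) in each day 0 sample (vertical axis, log10 of CPM + 0.02), with controls and knockout lines in separate colours and * for an adjusted p below 0.05. For Mixl1, T, Lhx1, Aplnr and Axin2 all 3 knockout lines lie below all 3 controls.

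Part of the interferon-stimulated list was lower in the knockouts. Of 44 listed genes 40 were tested, 9 were called lower, none was called higher, and 36 had values below 0. Over all genes tested, 0.788% were called lower. The list's median log2 fold change was -1.74, with -1.68, -1.60 and -1.16 in lines 14, 19 and 319 against their own controls. In 23 of the 40 genes all 3 knockouts lay below all controls, against 9.7% of all genes tested. Most called members were highest in the HM1 samples, as were the sums of fibroblast and smooth muscle markers, whose part in this result was not tested.

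Effector genes of the response were among the called members. Isg15, a ubiquitin-like protein that is attached to other proteins (chr4:156199424-156200818), was at 6.32, 8.10 and 1.36 CPM in the controls and at 0.137, 0.186 and 0.0612 CPM in the knockouts. Line 1A4 was the lowest control and line 319 the lowest knockout, yet the groups were well separated (log2 fold change -5.20 ± 0.58, adjusted p = 2.8e-04). Usp18, the protease that removes Isg15 from its targets, was at 1.01, 3.48 and 0.638 CPM against 0.137, 0.0232 and 0.0204 CPM, a log2 fold change of -4.93 ± 0.78 (adjusted p = 0.0054, and 0.10 without HM1 replicate 2). Trim30a, a ubiquitin ligase of the TRIM family, was at 1.72, 1.87 and 0.598 CPM against 0.137, 0.116 and 0.0408 CPM (log2 fold change -3.82 ± 0.65, adjusted p = 0.0084). In both genes line 1A4 was again the lowest control and the groups did not overlap. Ifih1, the cytosolic RNA sensor Mda5, was at 3.28, 3.34 and 1.12 CPM against 0.411, 0.163 and 0.122 CPM (log2 fold change -3.52 ± 0.69, adjusted p = 0.021). Rtp4 (-3.47 ± 0.69, adjusted p = 0.023) and the GTPase gene Mx2 (-3.08 ± 0.64, adjusted p = 0.029) were also called lower, at under 3 CPM in every sample. Without HM1 replicate 1, HM1 replicate 2 or line 14 the calls of Trim30a (0.096 to 0.14), Ifih1 (0.10 to 0.21), Rtp4 (0.072 to 0.29) and Mx2 (0.098 to 0.46) were lost, as were those of Rtp4 and Mx2 without line 19 (0.076 and 0.081). Mx2 also lost its call without the background term (0.053) or with HM1-derived lines alone (0.052), and Ifih1 with transcripts added up (0.070).

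Of the immunity-related GTPases, which act on the vacuoles of intracellular parasites, Igtp, Irgm2 and Iigp1 were called lower. Irgm1 had a value similar to that of Irgm2 but was not called (-2.17, adjusted p = 0.16). Irgm1 was called lower with day 0 alone (adjusted p = 0.0023), with HM1-derived lines alone (0.0047) and without the blastocyst-derived knockout line (0.0041). No other alternative called it. Igtp, on chromosome 11, was at 7.28, 9.03 and 4.83 CPM in the controls and at 1.65, 1.67 and 0.897 CPM in the knockouts (log2 fold change -2.34 ± 0.37, adjusted p = 0.0059). Irgm2, its neighbour, was at 7.51, 7.74 and 3.43 CPM against 1.68, 1.39 and 0.938 CPM (-2.22 ± 0.40, adjusted p = 0.013). The counted transcripts of these 2 genes overlap in exons on the same strand, so their values are uncertain and not independent; with chromosome 11 centred they were -2.13 and -2.01. Iigp1 was at 0.806, 1.73 and 0.638 CPM in the controls and had at most 0.0232 CPM in a knockout, at least 13.6-fold lower. The Igtp and Irgm2 calls were lost without HM1 replicate 1, HM1 replicate 2 or line 14 (0.060 to 0.17), and the Iigp1 call without HM1 replicate 2 (0.10) or line 14 (0.073).

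Stat2 and Irf9, which transmit the interferon signal, were not called. Stat2 was at 21.4, 25.7 and 27.97 CPM in the controls and at 19.9, 23.6 and 21.6 CPM in the knockouts (-0.20 ± 0.14, adjusted p = 0.74), and Irf9 differed by -0.34 ± 0.19 (adjusted p = 0.59). The groups overlapped for Stat2. Irf7, Ifit3, Ifi44 and Mx1 were too low to test. Among members that were not called, Gbp2, a guanylate-binding protein, was at 97.4, 86.6 and 23.6 CPM against 16.4, 20.6 and 1.10 CPM (-2.45 ± 0.97, adjusted p = 0.33). Line 1A4 lay just above lines 14 and 19. The number of interferon-stimulated genes called was 1 without HM1 replicate 2, 2 without line 14, 3 without HM1 replicate 1, and 20 without line 319. It was 18 with the HM1-derived lines alone and 7 of 30 without chromosomes 8, 11, 12, X and Y.

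**Figure D4:**
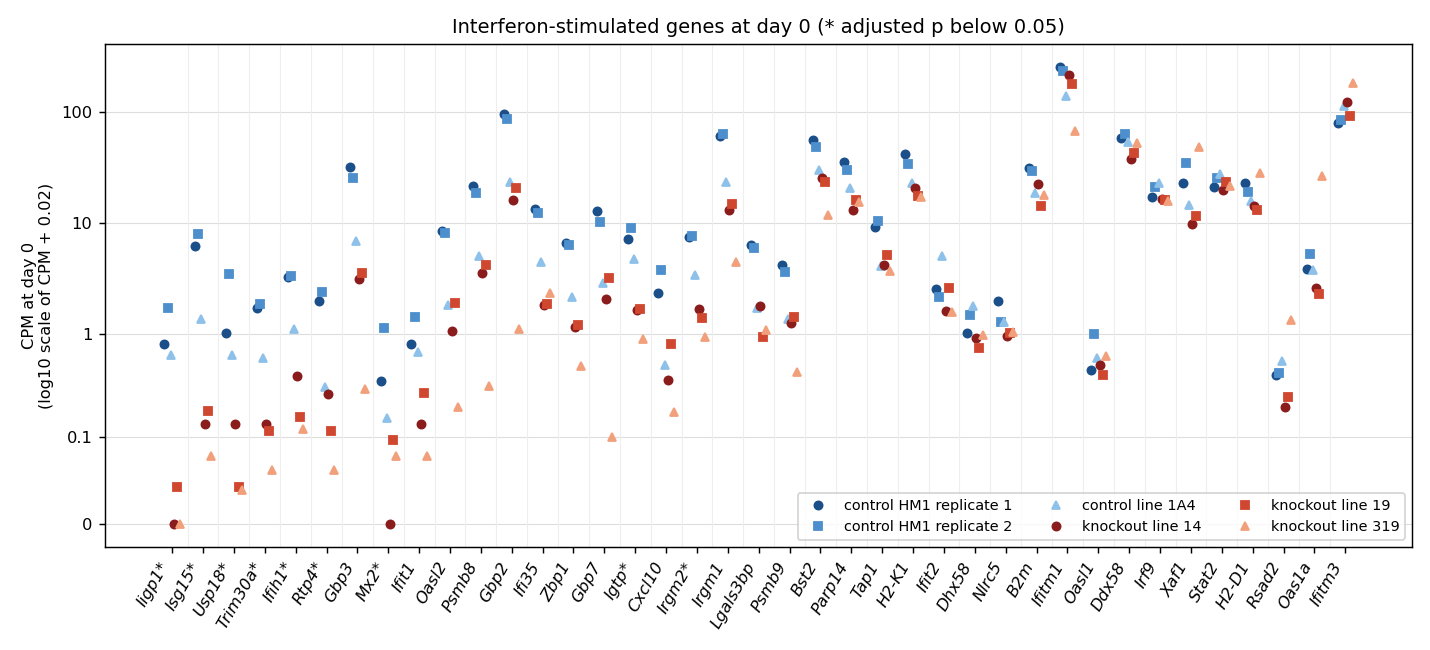
Level of interferon-stimulated genes (horizontal axis) in each day 0 sample (vertical axis, log10 of CPM + 0.02), with controls and knockout lines in separate colours and * for an adjusted p below 0.05. Isg15, Usp18 and Trim30a are lower in all 3 knockout lines, whereas Stat2 overlaps between the groups.

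Because 9 members of this list were called and Stat2 was not, the promoters were searched for the letters of the interferon-stimulated response element, GAAANNGAAA, on both strands. The RefSeq promoters of GRCm38.p6 were used, over 250 bases before each gene's start. Of 34 listed genes with a promoter entry 16 held the motif, against 2.98% of all 32851 promoters. Among the 9 genes called lower, 5 had an entry and 4 of them held it. Stat2, which was not called, held it too, so the letters were present in genes with and without a difference. The stretches around the match are shown 5′ to 3′ on the gene's strand with the matching bases in capitals, for the 4 called genes and for Stat2.
Isg15, chr4:156200850-156200921: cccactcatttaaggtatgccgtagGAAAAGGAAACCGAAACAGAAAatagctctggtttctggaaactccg
Trim30a, chr7:104465195-104465254: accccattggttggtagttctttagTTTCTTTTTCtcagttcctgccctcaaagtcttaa
Igtp, chr11:58199497-58199555: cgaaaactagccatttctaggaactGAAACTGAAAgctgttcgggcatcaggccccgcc
Irgm2, chr11:58214888-58214947: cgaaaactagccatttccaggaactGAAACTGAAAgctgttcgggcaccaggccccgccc
Stat2, chr10:128270251-128270310: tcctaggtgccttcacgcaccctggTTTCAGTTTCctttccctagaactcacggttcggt
The Irgm2 stretch lies before the RefSeq start at 58214977, inside the counted transcript, which starts further upstream at 58199618. The Isg15 stretch holds several overlapping matches, and the Trim30a and Stat2 stretches hold the motif on the other strand. The Igtp and Irgm2 stretches differ at 2 of 59 positions.

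Cyp26a1, the enzyme that degrades retinoic acid, was the only gene called among 19 retinoid pathway genes, whose median was -0.23. It was at 6.21, 13.8 and 7.94 CPM in the controls and at 0.891, 0.465 and 0.693 CPM in the knockouts. All knockout lines were well below all controls (log2 fold change -3.80 ± 0.37, adjusted p = 7.5e-05), and the call held in every alternative. The letters of a retinoic acid response element, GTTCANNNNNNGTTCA on either strand, occur in 22 of the 32851 promoters (0.067%), among them those of Cyp26a1 and Rarb. Rarb, a retinoic acid receptor, was at 0.156, 0.240 and 0.0798 CPM against 0.480, 0.279 and 0.347 CPM, above the controls and not called (1.16 ± 0.62, adjusted p = 0.56). The Cyp26a1 stretch and, from the Wnt genes, the Wnt5b stretch with the T-cell factor letters CTTTGAT (3.21% of promoters, either strand, and 2 of 17 Wnt genes with an entry, Wnt5b and Sp5) are shown in the same way.
Cyp26a1, chr19:37697751-37697807: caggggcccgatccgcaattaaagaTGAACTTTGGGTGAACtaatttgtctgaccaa
Wnt5b, chr6:119449426-119449482: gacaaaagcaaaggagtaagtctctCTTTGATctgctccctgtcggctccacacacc

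Simple epithelial keratins, which line early epithelia and trophoblast, were lower in the knockouts. Krt8 was at 101, 176 and 68.8 CPM in the controls and at 17.8, 19.2 and 11.9 CPM in the knockouts, and Krt18, its partner in the filament, at 74.0, 126 and 43.5 CPM against 16.0, 19.13 and 8.14 CPM. HM1 replicate 2 was the highest sample for both, and no knockout reached a control. The log2 fold changes were -2.83 ± 0.52 (adjusted p = 0.014) for Krt8 and -2.49 ± 0.47 (adjusted p = 0.016) for Krt18, and both calls were lost when HM1 replicate 1, HM1 replicate 2 or line 14 was left out (0.071 to 0.22) or when low counts were not filtered (0.062 and 0.063). Krt19, on chromosome 11 and in no list, was at 24.4, 49.2 and 18.03 CPM against 1.68, 1.93 and 3.02 CPM (-3.87 ± 0.45, adjusted p = 4.4e-04, and -3.66 with chromosome 11 centred). Krt8 and Krt18 were the only called members of the trophoblast list, of which 11 genes were tested with a median of -1.57. They are also expressed in other epithelia, and the sum over 5 defining trophoblast markers was at most 8.02 CPM in any sample.

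Further called genes were single members of their lists. Bmp2, a BMP ligand, was at 1.74, 4.33 and 1.64 CPM in the controls and at 0.446, 0.418 and 0.673 CPM in the knockouts (log2 fold change -2.27 ± 0.45, adjusted p = 0.022), while the median of 17 BMP genes was -0.20. Vldlr, the very low density lipoprotein receptor, which was listed among stress response genes, was at 3.69, 7.30 and 6.82 CPM against 2.06, 1.95 and 2.30 CPM (-1.49 ± 0.31, adjusted p = 0.029), and that list's median over 24 genes was -0.13. Both genes were lower in every knockout sample than in every control. With day 0 alone their adjusted p was 0.090 and 0.068. The Bmp2 call was also lost without HM1 replicate 1, HM1 replicate 2, line 14 or line 19 (0.058 to 0.33). The Vldlr call was lost without HM1 replicate 2, line 1A4 or line 14 (0.065 to 0.39), with HM1-derived lines alone (0.071) and with the replicate block (0.084). Cer1 was the only called gene of 16 in Nodal signalling (median 0.02), Fgf8 of 19 in FGF signalling (0.21) and Foxa2 of 17 in primitive endoderm (-0.33).

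Outside the lists, the rule on size named 5 further genes that were lower, besides Krt19 and Rspo3. Foxq1, a forkhead factor, was at 1.59, 5.36 and 3.15 CPM in the controls and at 0.343, 0.209 and 0.265 CPM in the knockouts (log2 fold change -3.65 ± 0.48, adjusted p = 0.0012), and this call held in every alternative. Pcsk5, a proprotein convertase, was at 1.30, 3.22 and 2.27 CPM against 0.103, 0.116 and 0.306 CPM (-3.59 ± 0.53, adjusted p = 0.0041). Rgs4, a regulator of G-protein signalling, was at 1.95, 2.19 and 0.997 CPM against 0.274, 0.279 and 0 CPM (-3.39 ± 0.62, adjusted p = 0.015). In each of these genes all knockout samples lay below all controls. Il15ra, a chain of the interleukin-15 receptor, had a log2 fold change of -2.91 ± 0.50 (adjusted p = 0.0092). Sprr2a3, a cornified envelope gene with near-identical copies and therefore uncertain, was at least 18.5-fold lower. Without HM1 replicate 2 the calls of Pcsk5 (0.092), Rgs4 (0.18), Il15ra (0.12) and Sprr2a3 (0.087) were lost. The calls of Rgs4 (0.100), Il15ra (0.072) and Sprr2a3 (0.054) were lost without line 14 too, and those of Rgs4 (0.093) and Il15ra (0.14) without HM1 replicate 1. Rgs4 also lost its call with day 0 alone (0.051) or without the background term (0.098), and Il15ra with the longest transcript of each gene (0.053).

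Fewer genes were higher in the knockouts, and the rule named 7 of the 12. Nuggc, a nuclear GTPase of germinal centre B cells, was at 1.69, 1.99 and 0.718 CPM in the controls and at 8.61, 5.88 and 4.98 CPM in the knockouts (log2 fold change 2.16 ± 0.31, adjusted p = 0.0035). Tenm4, a teneurin adhesion protein, was at 23.9, 23.9 and 40.1 CPM against 66.7, 82.2 and 186 CPM (1.89 ± 0.33, adjusted p = 0.0092). For both the knockouts lay above the controls, with line 319 highest for Tenm4. Grb10, an imprinted inhibitor of growth factor receptors on chromosome 11, was at 122, 114 and 30.3 CPM against 301, 284 and 88.5 CPM (1.38 ± 0.28, adjusted p = 0.029). Its groups overlapped, because line 319 exceeded its own control 1A4 but not HM1, and with chromosome 11 centred the value was 1.58. Grb10 was the only called gene among 30 imprinted genes, whose median was -0.14. Its call was lost without either HM1 replicate, line 1A4 or line 14 (0.072 to 0.24), with HM1-derived lines alone (0.056), with transcripts added up (0.063) and without the background term (0.53). Tenm4 lost its call without HM1 replicate 1 (0.12) or HM1 replicate 2 (0.18), and Nuggc without HM1 replicate 1 (0.054).

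Plcd1, a phospholipase C, was at 8.21, 6.27 and 11.3 CPM in the controls and at 13.6, 21.03 and 32.9 CPM in the knockouts (1.37 ± 0.21, adjusted p = 0.0052). Hebp1, a haem-binding protein, was at 10.6, 11.4 and 11.9 CPM against 21.3, 20.8 and 32.0 CPM (1.10 ± 0.17, adjusted p = 0.0045), and Ptprk, a receptor tyrosine phosphatase, at 68.5, 64.5 and 80.8 CPM against 124, 119.8 and 127 CPM (0.79 ± 0.15, adjusted p = 0.019). Btbd11 rose by 1.19 ± 0.26 (adjusted p = 0.046), a call that was lost in 11 alternatives, the replicate block among them (0.056). No knockout sample of these genes overlapped a control. Without HM1 replicate 1 or HM1 replicate 2 the calls of Plcd1 (0.059 and 0.12), Hebp1 (0.071 and 0.098) and Ptprk (0.28 and 0.38) were lost, and Ptprk lost its call without line 14 as well (0.072). The other 5 higher genes fell outside the rule by chromosome, level or name: Prps1 on chromosome X (0.65), Zfp423 on chromosome 8 (0.98), Kif26a on chromosome 12 (1.20), A930004D18Rik (2.21) and Prdm12 (3.51). With each chromosome centred Prps1 was at 0.42 and no longer called (adjusted p = 0.24), Zfp423 at 1.20 and Kif26a at 1.03. A930004D18Rik lost its call under the replicate block (0.079), and its value was 1.07 with HM1-derived lines alone. Kif26a and A930004D18Rik lost their calls with day 0 alone (0.060 and 0.14), and Zfp423 and Kif26a without the background term (0.135 and 0.12). With HM1-derived lines alone Prps1 (0.068), Kif26a (0.105) and Prdm12 (0.065) were not called. Zfp423 was not called with transcripts added up (0.059), nor Prps1 without the filter (0.078). Without line 1A4 only Prdm12 of the 5 kept its call (the others 0.078 to 0.19). All 5 lost their call without HM1 replicate 1, HM1 replicate 2 or line 14 (0.072 to 0.48). No gene was called higher without HM1 replicate 1, 1 was without HM1 replicate 2, 4 were without line 14, and 40 were without line 19 or without line 319.

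Genes of the pluripotency network were not called, except under some alternatives. Pou5f1, which encodes Oct4, was at 1038, 999 and 1127 CPM in the controls and at 1298, 1222 and 1506 CPM in the knockouts (log2 fold change 0.34 ± 0.25, adjusted p = 0.76). All 3 knockouts were above all controls, by less than the test required. Nanog was at 586, 749.6 and 471 CPM against 627, 568 and 906 CPM (0.13 ± 0.49), and its groups overlapped. Sox2 (0.27 ± 0.16), Esrrb (0.35 ± 0.55), Klf4 (0.48 ± 0.45) and Zfp42 (0.05 ± 0.39) were not called either, and with each chromosome centred Esrrb was at 0.21 and Zfp42 at 0.26. The median was 0.19 over 18 naive genes and 0.16 over 13 general pluripotency genes, of which 12 were above 0. The naive median was 0.01 without line 319 and -0.09 without line 1A4, where 13 of 18 genes were below 0. It was 0.03 over 10 genes of the formative and primed epiblast, among them Fgf5 (-0.81 ± 0.49), and ran from -0.31 without line 19 to 0.36 without line 319. Of the Nodal targets Lefty1 (-0.24 ± 0.79) was not called. Lefty2 was at 428, 461 and 341 CPM in the controls and at 292, 200.1 and 92.9 CPM in the knockouts, without overlap, and was not called either (-0.96 ± 0.92, adjusted p = 0.85). Dppa3, a maternal factor of naive cells, was at 70.0, 70.3 and 45.5 CPM against 32.0, 24.9 and 8.61 CPM (-1.57 ± 0.40, adjusted p = 0.094). Its groups did not overlap, and it was called lower under the replicate block (adjusted p = 0.016), with DESeq2 (0.0077), with day 0 alone (0.033) and without line 19 (0.028). Nr0b1, a nuclear receptor of naive cells on chromosome X, was called higher with day 0 alone (0.93, adjusted p = 0.0087). Of the formative list Wnt8a was called lower with day 0 alone (0.020) and with HM1-derived lines alone (0.0040), and Lef1 higher without line 319 (0.038). These values have wide errors, and a missed threshold does not show equal levels.

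None of the genes in several other lists was called: 18 of neural progenitors (median 0.35), 16 of Notch signalling (-0.15), 9 of the 2-cell-like state (0.85, 8 above 0), 21 methylation-silenced germline genes (0.36), 24 p53 targets (0.08), 29 of cholesterol and fatty acid synthesis (-0.11), 19 of glycolysis (0.15) and 7 mitochondrially encoded subunits (-0.26). Nor was any called among 17 tested fibroblast markers, of which 15 had values below 0 (median -0.35), or among 7 smooth muscle markers, all 7 below 0 (median -0.96). Sox1, a factor of the neural plate on chromosome 8 that carries a gfp allele in lines 1A4 and 319, was at 0.468, 0.649 and 1.87 CPM in the controls and at 1.95, 1.81 and 6.91 CPM in the knockouts (2.10 ± 0.96, adjusted p = 0.45), with line 19 below 1A4. With chromosome 8 centred its value was 2.42. Cdx2, a trophoblast and hindgut factor, was at 1.22, 1.30 and 1.76 CPM against 0.480, 0.349 and 0.428 CPM (-1.79 ± 0.86, adjusted p = 0.49). Neither these nor Gata6 of the primitive endoderm (-0.93 ± 0.37, adjusted p = 0.35), Zscan4c of the 2-cell-like state (0.59 ± 0.60) or the collagen gene Col1a1 (-0.29 ± 0.31, and -0.08 with chromosome 11 centred) was called. Tagln, an actin-binding protein of smooth muscle, was at 112, 130.2 and 47.2 CPM in the controls and at 42.0, 30.8 and 11.8 CPM in the knockouts (-1.80 ± 0.48, adjusted p = 0.11). All its knockout samples lay below all controls, the nearest being 1A4 and line 14. Tagln and Cnn1, another smooth muscle gene, were called lower with DESeq2, with day 0 alone, with HM1-derived lines alone and without line 1A4 (adjusted p from 0.0047 to 0.035). Of the fibroblast markers Postn was called lower with DESeq2, with day 0 alone and without HM1 replicate 1 (0.026 to 0.041), and Mmp2 with DESeq2 (0.044). Of the neural list Nes was called lower and Sox1 higher with HM1-derived lines alone (0.024 and 0.040). At an unadjusted p of 0.05, 7.36% of all genes were lower and 3.29% higher, and 5 of the 17 fibroblast markers and 3 of the 7 smooth muscle markers were lower.

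The day 0 differences were set beside those of the same lines at day 2 and day 3. The genes had been picked by day 0 values, which also enter the change between days, so that change is a description for them. The day 2 difference exceeded the day 0 difference in 4 of all genes tested (0.0219%), Mixl1, Apln, Fam213a and Isg20, and the day 3 difference did so in 72 genes (0.394%). The median over the streak list ran from -3.30 at day 0 through -1.23 at day 2 to 0.76 at day 3. Over the Wnt list it was -0.69, -0.36 and 0.15, and over the interferon-stimulated list -1.74, -0.33 and -0.81. Of the streak genes 5 were among the 72, and of the interferon-stimulated genes none was. Tested within each day, 4 of the 13 streak genes were called lower at day 2, where 0.963% of all genes were, and 1 at day 3, where 2.44% of all genes were. Of the interferon-stimulated genes 2 were called lower at day 2 and 5 at day 3.

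Levels moved in the controls as well. Mixl1 was at 1.37, 1.33 and 0.849 CPM in the controls at day 2 and at 0.323, 0.434 and 0.469 CPM at day 3, below the day 0 controls, while the knockouts were at 0.608, 0.603 and 0.951 CPM and at 0.529, 0.343 and 1.29 CPM. The groups overlapped at both later days, with log2 fold changes of -0.78 ± 0.38 and 0.76 ± 0.39. Lhx1 was at 4.88, 5.65 and 4.87 CPM against 0.285, 0 and 0.475 CPM at day 2, and at 6.49, 5.11 and 15.5 CPM against 24.6, 34.1 and 68.1 CPM at day 3. Its difference thus turned from -4.20 ± 0.59 at day 2 (adjusted p = 0.0031) to 2.24 ± 0.46 at day 3 (adjusted p = 0.013), without overlap on either day. Cyp26a1 took the same course, from -4.71 ± 0.46 at day 2 (adjusted p = 2.3e-04) to 1.24 ± 0.30 at day 3 (adjusted p = 0.028). Its controls rose to 59.8, 62.9 and 68.3 CPM at day 3 and its knockouts to 137, 120 and 195 CPM. T and Isg15 were lower on all 3 days, at -3.08 ± 0.58 and -4.96 ± 0.83 at day 2 (adjusted p = 0.015 and 0.0090) and at -1.19 ± 0.54 and -2.53 ± 0.72 at day 3 (adjusted p = 0.21 and 0.054). Nup133 itself stayed at -3.28 and -3.40.

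**Figure D5:**
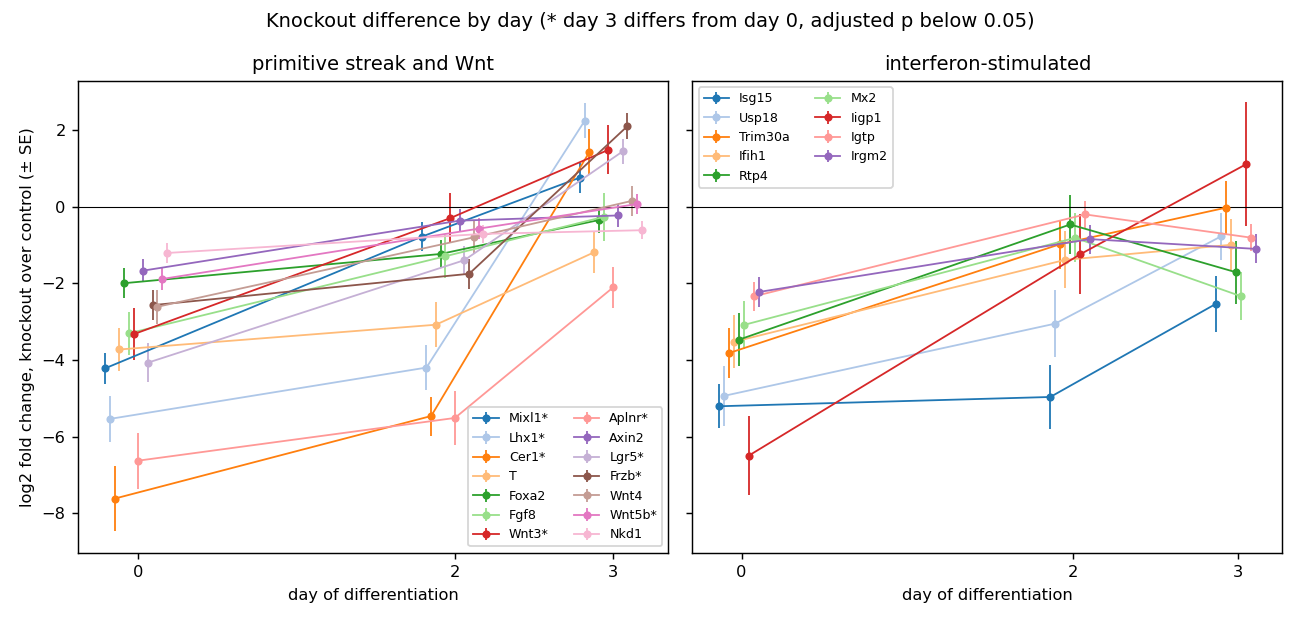
Log2 fold change, knockout over control, with its standard error (vertical axis) at day 0, day 2 and day 3 (horizontal axis) for named genes. Lhx1 passes from below 0 at day 0 and day 2 to above 0 at day 3, while T and Isg15 stay below 0 on all 3 days.

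The difference was also tested between the backgrounds, line 319 against 1A4 compared with lines 14 and 19 against HM1. It differed in 901 genes (4.93%), 720 with a higher value in line 319 and 181 with a lower one. Of the 901, 183 lie on chromosomes X, 12 and 8, which hold 672, 620 and 920 of the 18273 genes tested. Of the 156 genes called at day 0, 10 were among the 901. Otx2, a homeobox factor of the formative epiblast, was at 102, 62.3 and 67.3 CPM in the controls and at 115, 171 and 41.2 CPM in the knockouts. Lines 14 and 19 lay above HM1 and line 319 below 1A4, and the common difference of 0.48 ± 0.36 was not called. The sex, karyotype and allele of line 319 also differ from those of lines 14 and 19, so their contributions cannot be told apart.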

How the data were processed

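Polyadenylated RNA was made into stranded TruSeq libraries, per the labels' protocols. The authors deposited a raw read count for each Ensembl transcript in each library. The submitters' processing notes name bcl2fastq 2.17.1.14, STAR 2.4.0k, SAMtools, HTSeq and mm10. The release of the annotation and whether counting used strand are not given in the sources used here. Of 110379 transcripts 108214 matched GENCODE M21 (GRCm38), and unmatched ones held 1.55% to 1.72% of the day 0 counts. A read was counted for each transcript it overlapped (the sum over transcripts was 2.90 to 2.97 times that over genes), so each gene was represented by its transcript with the highest total. The 4 technical files of a sample, which agree within sampling noise (chi-square per degree of freedom 1.01 to 1.03), were summed, whereas HM1 replicates 1 and 2 at day 0 gave 11.3. No biological sample was left out.

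edgeR 4.0.16 (R 4.3.3) quasi-likelihood tests used all 18 samples, with 6 groups of genotype and day, a term for blastocyst origin, TMM scaling and filterByExpr, which kept 18273 genes. Adjusted p-values are Benjamini-Hochberg values over these, with calls at 0.05. The fit was also run on simulated counts drawn from its own estimates. At day 0 these had no differences between lines other than changes put into the knockouts. They therefore cannot show the rate of false calls in these data. A fold change that rests on a group with at most 3 counts per sample is given as a bound against 3 counts in each sample.

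Named genes are Nup133, every higher and the 20 most changed lower genes (at least 1 CPM in the higher group, the same sign in all lines, a gene name, off chromosomes 8, 12, X, Y and MT), called list members and a preset panel of 24 genes. A further gene of that panel is not reported here, though it is counted in its list. Members and lists were chosen with earlier results of these data known. Alternatives were DESeq2 1.42.0, RLE scaling, no filter, other transcript choices, day 0 alone, no background term and HM1-derived lines alone. Others were a replicate block (limma 3.58.1), each replicate left out, and chromosomes left out or centred. Leaving out a replicate removed all 3 days of that line or HM1 replicate. Only the replicate block took samples of the same line or HM1 replicate over the days as paired, and the main fit has no such term. Of 18 such pairs, 16 deviated together from their group means with a correlation over 0.1 (range -0.09 to 0.40). The difference between backgrounds was not removed from these deviations. With the background term in the fit, the consensus correlation of the block was 0.01.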

Additional observations from a re-analysis of the deposited data

Results flagged for a closer look

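Differences that changed between days or backgrounds are listed here; no explanation of them was tested. Most of the genes below were picked by their day 0 values, which enter each difference. Mixl1, Cer1, Cyp26a1 and Otx2 were in a preset panel, which was itself chosen with earlier results known.

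The knockout difference rose from day 0 to day 2 in Mixl1, by 3.43 ± 0.54 on the log2 scale (SE, adjusted p = 0.047, edgeR). From day 0 to day 3 it rose by 4.97 ± 0.55 in Mixl1 (adjusted p = 5.2e-04), by 7.78 ± 0.76 in Lhx1 (1.5e-04), by 4.81 ± 0.92 in Wnt3 (0.032), by 4.52 ± 0.94 in Aplnr (0.048) and by 9.04 ± 1.11 in Cer1 (0.0031). All 5 belong to the streak list. The Cer1 and Aplnr values, and that of Lgr5 given next, rest on day 0 knockout samples at or near 0 counts and depend on the prior count of the fit. Among Wnt genes it rose by 5.51 ± 0.61 in Lgr5 (5.2e-04), by 4.67 ± 0.53 in Frzb (5.4e-04), by 1.96 ± 0.39 in Wnt5b (0.042) and by 4.76 ± 0.76 in Rspo3 (0.010). It also rose by 5.04 ± 0.47 in Cyp26a1 (1.5e-04), by 3.02 ± 0.58 in Krt19 (0.032) and by 3.76 ± 0.69 in Pcsk5 (0.025).

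At day 0 the difference in line 319 stood above that in lines 14 and 19 by 1.33 ± 0.27 for Btbd11 (adjusted p = 0.014), and below it by -5.79 ± 1.52 for Rgs4 (0.046) and by -1.72 ± 0.37 for Otx2 (0.020). Btbd11 was at 10.9, 12.6 and 15.1 CPM in the controls and at 20.3, 20.2 and 50.2 CPM in lines 14, 19 and 319. The Rgs4 value rests on a count of 0 in line 319 and depends on the prior count of the fit.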

How the results depend on the processing

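Of 43 named genes that were called, 8 (Nup133, Aplnr, Lhx1, Isg15, Mixl1, Krt19, Cyp26a1 and Foxq1) kept their call in every one of the 18 alternatives that gave them a value, and none of the 43 reversed. The 156 calls at day 0 became 563 with DESeq2, 244 with day 0 alone, 313 with HM1-derived lines alone and 18 to 406 when a replicate was left out. The 144 lower genes became 479, 296 (HM1-derived lines alone) and 17 to 366, and the 12 higher genes became 84, 49 (day 0 alone), 7 without chromosomes 8, 11, 12, X and Y, and 0 to 40. The 4 changes from day 0 to day 2 became 69 with DESeq2, 7 without the filter, 2 without the background term, 0 with HM1-derived lines alone (edgeR, 1867 at an unadjusted p of 0.05, against 1308), 2 without chromosomes 8, 12, X and Y, 2 when chromosome 11 was left out too, and 0 to 10 with a replicate left out. The 78 changes from day 0 to day 3 became 448, 131, 50, 143 (in the same order) and 6 to 401. The paired fit with a replicate block (consensus correlation 0.01) gave 169 calls at day 0, 136 of them shared with the 156, and 4 and 98 for the changes.

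Signs near 0 turned for genes that were not called. Nanog was -0.15 with HM1-derived lines alone and -0.38 to 0.41 with a replicate left out (-0.38 without line 1A4, -0.14 without line 319). In the fits with a replicate left out Zfp42 ran from -0.11 to 0.10 and Esrrb from -0.04 to 0.49. Nodal (-0.01) was 0.14 with day 0 alone, 0.25 without the background term, 0.16 under the block and -0.62 to 0.27 with a replicate left out. Col1a1 ran from -0.59 to 0.00, the latter without line 19. Counted over lists and alternatives, there were 32 cases in which a list median moved by more than the spread between samples. The median of neural progenitors turned to -0.06 without line 19. Fits without chromosome 11 and the centred fit were chosen after seeing the data. The test between backgrounds was not rerun, since it needs line 319 and 1A4. With 3 samples a group, genes under 1 CPM were measured with few counts.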

Other observations

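Among 9 tested genes within 100000 bases of Nup133, 1 was called at day 0 besides Nup133 itself. Acta1, the actin of skeletal muscle, lies 2371 bases from Nup133. It was at 12.4, 20.3 and 2.43 CPM in HM1 replicates 1 and 2 and line 1A4. In lines 14, 19 and 319 it was at 1.13, 1.56 and 0.143 CPM. Every knockout lay below every control, and the log2 fold change was -3.61 ± 0.73 at day 0 (adjusted p = 0.023, edgeR), -2.85 ± 0.71 at day 2 (0.053) and -3.11 ± 0.69 at day 3 (0.020). With chromosome 8 centred it was -3.42 at day 0, and the call was lost without HM1 replicate 1, HM1 replicate 2, line 14 or line 19 (0.052 to 0.22), without the low-count filter (0.099) and without the background term (0.093). The gene was picked after its values were seen. The smooth muscle actin gene Acta2, on chromosome 19, differed by -1.33 ± 0.44 at day 0 (adjusted p = 0.21). Abcb10, the nearest gene on the other side, at 3193 bases, was at 40.6, 44.2 and 64.1 CPM against 40.1, 39.0 and 29.1 CPM (-0.44 ± 0.20, adjusted p = 0.46).

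Some lists in which no gene was called had most of their values on 1 side of 0. Of 73 nuclear genes for oxidative phosphorylation subunits 62 had a fold change above 0 (median 0.15), and in 24 all 3 knockouts lay above all controls, against 8.06% of all genes. Of 33 Hox genes 25 were above 0 (median 0.52), and in 11 the knockouts lay above the controls. Hoxd13, a homeobox gene of the distal limb, was at 0.546, 0.408 and 1.04 CPM against 1.27, 1.60 and 1.47 CPM (1.19 ± 0.34, adjusted p = 0.13). It was called with DESeq2 (0.028) and without line 1A4 (0.045) or line 319 (0.049), and Hoxa13 was called under the replicate block (0.049). Of 16 immediate early genes 15 were below 0 (median -0.70, and -0.31 without HM1 replicate 1, -0.41 without line 319). Atf3 was called lower with DESeq2 (0.045), with HM1-derived lines alone (0.024) and without line 1A4 (0.045). Fos was at 329.8, 193 and 58.4 CPM against 139.8, 195 and 15.6 CPM (-0.81 ± 0.70, adjusted p = 0.81), so its groups overlapped and the blastocyst-derived lines were the lowest of each group.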
